A study of Mus musculus with 72 samples.

Results

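The neuropeptide precursors described here are 7 genes whose products are cut into signalling peptides: Trh, Crh, Pdyn, Penk, Vip, Nppc and Gal. They were taken by name, and 7 of 7 were present both among the 17231 genes of the droplet (10X) table and among the 24256 genes of the table of manually sorted cells. All cells were Pet1 neurons, that is neurons labelled through a Flpe recombinase driven by regulatory sequence of Fev (Pet1), dissociated from the dorsal raphe (DR) of adult mice. The 10X table holds 2350 cells sorted from the whole DR in 2 runs. The first run used Pet1::Flpe+/-; hM3Dq+/+ mice at a mean of postnatal day 65.5, in which Flpe alone switches on EGFP. The second run used mice at a mean of postnatal day 59 that carried En1::cre+/- together with Pet1::Flpe+/- and the reporter RC::FrePe+/-, in which EGFP also requires En1-cre and so marks cells that descend from the En1 domain.

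The manual table holds 70 cells in 8 groups from mice that carried Pet1::Flpe+/- and RC::FrePe+/- together with 1 of 4 heterozygous Cre drivers. The groups were Slc6a4-cre (given as Sert::cre in the labels) from the dorsolateral (dlDR, n = 10 cells), dorsomedial (dmDR, n = 9), ventromedial (vmDR, n = 8) and caudal DR (cDR, n = 6), P2ry1-cre from the cDR (n = 10), Npy2r-cre from the cDR (n = 10) and the rostral DR (rDR, n = 9), and Crh-cre from the rDR (n = 8). The dlDR, dmDR and vmDR cells came from postnatal days 63 and 90, and the Slc6a4-cre cDR cells from day 63. The P2ry1-cre cells came from days 62 to 74, the Npy2r-cre cells from days 77 and 87, and the Crh-cre cells from days 83 and 119. The reporter records that a cell once used both recombinases, so the gene that drives Cre need not be active in the adult cell, and no sorted group is a complete sample of its subdomain.

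Neuropeptides are made as larger precursors, cleaved by prohormone convertases inside dense-core vesicles and released beside fast and monoamine transmitters, usually during sustained firing. They act through G-protein-coupled receptors, or, for the natriuretic peptide encoded by Nppc, through a receptor guanylyl cyclase, at sites that can lie far from the release site. Serotonin neurons of the DR are known to hold several of them, along with GABA-synthetic enzymes or the vesicular glutamate transporter VGLUT3, the product of Slc17a8.

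By the annotation of the mm10 build used here, Trh lies at chr6:92242061-92244650 (minus strand), Crh at chr3:19693401-19695396 (minus), Pdyn at chr2:129686565-129699844 (minus), Penk at chr4:4133531-4138819 (minus), Vip at chr10:5639218-5647617 (plus), Nppc at chr1:86666291-86670571 (minus) and Gal at chr19:3409915-3414544 (minus). Genes of this kind are textbook targets of cAMP signalling, so the RefSeq promoter windows of build GRCm38.p6 (the same assembly as mm10), cut to the 250 bases before the start, were searched for the cAMP response element TGACGTCA and its core TGACG on both strands. Windows were found for 5 of the 7 members, all except Crh and Penk, and Pdyn had 2 windows. The full element, which contains the core on each strand, was in none of the 5 and in 1.55% (508) of 32851 promoters. The core was in the windows of Trh, on the antisense strand 96 bases before the start, and of Vip, 79 bases before it, and 17.8% (5836) of all promoters held it. Those 2 windows are shown for their match. The first window of Pdyn, the member found in most cells, and that of Nppc, which is high in 1 cluster, are shown as members without it. Each is given 5′ to 3′ on the strand of the gene with the core in capitals.
Trh, chr6:92244651-92244900, minus strand: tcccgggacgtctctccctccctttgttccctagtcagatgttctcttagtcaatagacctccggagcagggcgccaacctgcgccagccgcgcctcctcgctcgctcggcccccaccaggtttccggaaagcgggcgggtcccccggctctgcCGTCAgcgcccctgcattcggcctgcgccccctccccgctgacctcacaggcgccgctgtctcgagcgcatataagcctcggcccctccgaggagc
Vip, chr10:5638968-5639217, plus strand: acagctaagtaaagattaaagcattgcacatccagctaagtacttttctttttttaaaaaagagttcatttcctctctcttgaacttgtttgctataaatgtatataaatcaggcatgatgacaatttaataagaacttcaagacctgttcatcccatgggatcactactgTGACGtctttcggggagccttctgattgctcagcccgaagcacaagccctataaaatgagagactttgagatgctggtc
Pdyn, chr2:129699939-129700188, minus strand: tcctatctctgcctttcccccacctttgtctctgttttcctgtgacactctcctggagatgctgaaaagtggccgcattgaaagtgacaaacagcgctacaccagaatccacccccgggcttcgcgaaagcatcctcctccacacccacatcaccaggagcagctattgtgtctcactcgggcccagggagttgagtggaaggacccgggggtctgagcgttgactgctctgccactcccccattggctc
Nppc, chr1:86670574-86670823, minus strand: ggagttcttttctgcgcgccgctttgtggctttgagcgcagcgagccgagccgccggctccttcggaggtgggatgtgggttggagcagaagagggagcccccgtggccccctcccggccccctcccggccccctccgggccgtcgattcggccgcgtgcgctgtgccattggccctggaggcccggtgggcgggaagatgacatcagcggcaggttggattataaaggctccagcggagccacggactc
The window of Gal, chr19:3414545-3414794 (minus strand), and the second window of Pdyn, chr2:129698659-129698908 (minus strand), had no TGACG either. A match of letters is a description of these windows and shows no binding.

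The 10X cells had between 12320 and 134079 UMIs (transcript molecules counted at their 3′ ends), with a median of 59646. The columns end in 1 of 2 barcode suffixes, called barcode set 1 (869 cells) and barcode set 2 (1481 cells), which share 0 barcodes. Nothing used here ties a set to a run, so run, genotype, age and sex behind a set cannot be told apart, and the table was treated as 1 sample. Fev, on which the authors had filtered the cells, was found in 100% and Tph2, the rate-limiting enzyme of serotonin synthesis in the brain, in 99.5% of the cells. Scrublet called 14 cells doublets. Of genes that these neurons should lack, Hcrt (orexin precursor) had a UMI in 3.28% of cells and never more than 2, Hbb-bs (haemoglobin) in 1.02%, the dopamine enzyme Th in 1.40% and Slc17a6 in 0.468%. The precursors Insl5, Agrp and Sct also never exceeded 2 UMIs, but had one in 6.89%, 8.04% and 10.0% of cells, so a share of this size at 1 UMI does not by itself show expression. No test between cells or groups was made and no p-value is given, because neither table names an animal. The exception is a search of each sorted group for an outlying cell, given further on. All intervals are 95%, exact Clopper-Pearson for shares and exact Poisson for levels, and cover counting error only.

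At least 1 of the 7 precursors was found in 1704 of the 2350 cells, or 72.5% (70.7 to 74.3), and 2 or more were found in 778 cells, or 33.1% (31.2 to 35.1). With 3 UMIs or more of a gene required, 987 cells (42.0%) had at least 1 member and 171 cells (7.28%) had 2 or more. No member was found in 646 cells, 1 in 926, 2 in 588, 3 in 174, 4 in 15 and 5 in 1 cell. When 20000 UMIs were drawn from each cell and the 53 cells below that depth were set aside, 56.0% had at least 1 member and 15.1% had 2 or more. The shares therefore depended on depth and on the number of UMIs asked for, while both barcode sets gave nearly the same value (73.4% and 72.0% for any member).

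Pdyn, the precursor of the dynorphins that act at kappa opioid receptors, was the most widely found member. It had a UMI in 1104 cells, 47.0% (44.9 to 49.0), 3 UMIs or more in 596 and 10 or more in 194, and its level over all cells was 48.8 CPM (UMIs of the gene per 1000000 UMIs, 47.7 to 50.0). Gal, the precursor of galanin, was found in 569 cells, 24.2% (22.5 to 26.0), at 11.3 CPM, but only 24 cells had 10 UMIs or more. Pdyn therefore combined wide detection with high counts per cell, and Gal wide detection with low counts. The median depth was 63780 UMIs in cells with Pdyn and 56122 in cells without it, and 67952 against 56873 for Gal, so detection of both also moved with depth.

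Trh, the precursor of thyrotropin-releasing hormone, was found in 419 cells, 17.8% (16.3 to 19.4), with a level of 14.6 CPM and up to 58 UMIs in a cell. Crh, the precursor of the stress peptide corticotropin-releasing hormone, was found in 314 cells, 13.4% (12.0 to 14.8), with a level of 9.73 CPM and up to 48 UMIs in a cell. Both were uneven, since 52 cells held 50% of the Trh UMIs and 39 cells held 50% of the Crh UMIs. The median depth of cells with and without Trh differed little (58564 and 60312 UMIs), whereas cells with Crh were deeper (67619 against 58362).

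Penk, the precursor of the enkephalins, was found in only 98 cells, 4.17% (3.40 to 5.06), but 21 of these had 10 UMIs or more, the highest had 85, and 10 cells held 50% of its UMIs. Nppc, the precursor of C-type natriuretic peptide, was found in 154 cells, 6.55% (5.59 to 7.63), with at most 9 UMIs in a cell. Both shares are within the range of the precursors that never exceeded 2 UMIs, whereas 39 Penk and 32 Nppc cells had 3 UMIs or more. The cells with either gene were shallow, with a median depth of 38448 UMIs for Penk and 36316 for Nppc, against 59981 and 60519 UMIs in the cells without them. Vip, the precursor of vasoactive intestinal peptide, was found in 31 cells, 1.32% (0.898 to 1.87), which is below the share of cells with a UMI of Hcrt. A single cell carried 103 of the 134 Vip UMIs, and every other cell had at most 2. That cell had 121747 UMIs, 296 of Tph2, 9 of Gad2 and 9 of Slc17a8, was not called a doublet and had 3 UMIs or more of Pdyn as well.

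The barcode sets differed in the members more than in most genes. Trh had 23.8 CPM in set 1 and 9.65 CPM in set 2 (log2 ratio 1.30, 1.17 to 1.43). Penk had 10.8 and 2.48 CPM (2.12, 1.89 to 2.36), and Nppc 3.35 and 1.38 CPM (1.28, 0.93 to 1.63). With Vip, whose ratio rests on its single high cell, 4 of 7 members were at least 2-fold higher in set 1, against 0.853% of the 12901 genes with 100 UMIs or more, and 0 of 7 were at least 2-fold lower, against 0.589% (1.44% of genes either way). Of the 14 other listed precursors with a UMI in 5% of cells or more, 0 were higher in set 1 by that size. These 14 include Agrp, Insl5 and Sct, which never exceeded 2 UMIs. Penk (4.17%) and Vip (1.32%) would not reach that share. Gal was also higher in set 1 (16.0 against 8.77 CPM), whereas Pdyn (42.7 against 52.2 CPM) and Crh (7.16 against 11.1 CPM) were higher in set 2.

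Part of the set difference was in the make-up of the sets and part was within clusters. Set 1 gave 62.3% of the cells of cluster 2, the cluster with the highest Trh level (below), against 37.0% of all cells. Within cluster 2, Trh had 73.0 CPM in set 1 (n = 230 cells) and 42.7 CPM in set 2 (n = 139). Within cluster 13, to which each set gave 72 cells, Penk had 205 CPM in set 1 and 73.5 CPM in set 2, and Nppc 56.2 and 28.3 CPM. Every share and level given for all cells is thus a mean over 2 unequal sets.

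Joint detection was described for the 21 pairs of members by the number of cells with both genes beside the number that the product of the 2 shares would give. Crh and Pdyn were found together in 223 cells, where the product gave 148, and with 3 UMIs or more of each in 55 cells, where it gave 33.0. Most of the Crh cells also had Pdyn (223 of 314), while only a minority of the Pdyn cells had Crh (223 of 1104). Pdyn and Gal shared 357 cells, where the product gave 267, and 73 cells at 3 UMIs or more, where it gave 44.4. Cells with Pdyn, Crh or Gal were deeper than the rest, so the pairs were also counted at equal depth. After thinning, Crh and Pdyn still shared 84 cells (product 60.6) and Pdyn and Gal 130 (product 96.3). At 3 UMIs or more in the thinned cells, Pdyn and Gal shared 10 cells (product 4.43), but Crh and Pdyn only 3 (product 6.58), so the direction for Crh and Pdyn depended on the minimum at that depth.

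Penk and Nppc stood furthest above the product. They were found together in 31 cells, where the product gave 6.42, in 20 (product 4.33) of set 1 and 11 (product 2.55) of set 2, and with 3 UMIs or more in 10 cells, where it gave 0.531. Trh and Crh, in contrast, were found together in only 25 cells, where the product gave 56.0. With 3 UMIs or more of each, 0 cells had both Trh and Crh, where the product gave 11.1, which allows a share of up to 0.157% of all cells. Nppc and Gal shared 9 cells (product 37.3), Penk and Gal 8 (23.7), Trh and Penk 6 (17.5) and Trh and Nppc 9 (27.5). Trh and Gal were together in 121 cells (product 101), Crh and Gal in 91 (76.0) and Crh and Penk in 19 (13.1), all above the product. Trh and Pdyn shared 178 of the 419 Trh cells (product 197). At 3 UMIs or more, Trh and Gal shared 9 cells, below the product of 14.9, and Crh and Gal 14, above the product of 9.68. After thinning, at 1 UMI or more, Trh and Gal shared 35 cells (product 35.5), Crh and Gal 27 (24.5), Crh and Penk 7 (5.40) and Trh and Pdyn 67 (87.9), so the excess of Trh with Gal was not seen at equal depth. Trh had few cells in common with Crh, Penk or Nppc at either minimum.

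**Figure D1:**
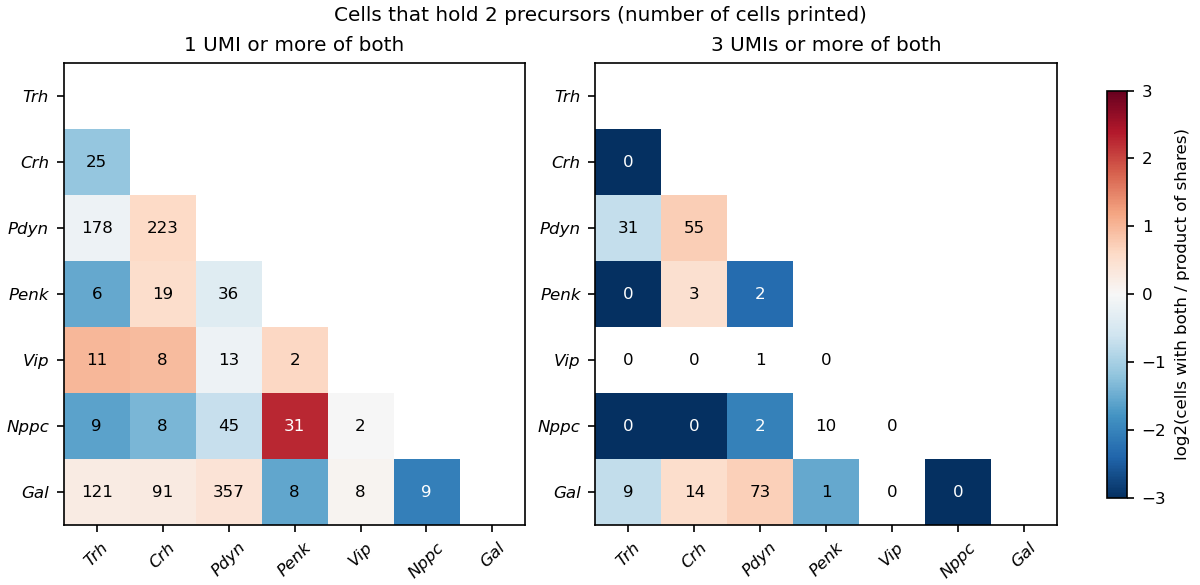
Number of 10X cells with both members of each pair, at 1 UMI or more and at 3 UMIs or more of each gene, coloured by the log2 ratio to the number that the product of the shares gives. Pairs with 0 cells are drawn at the lowest colour, and pairs whose product is under 1 cell are uncoloured. Crh and Pdyn (223 cells) and Pdyn and Gal (357 cells) lie above the product, and Trh and Crh (25 cells) below it.

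The same counts were made inside the clusters described further on. Inside cluster 13, Penk and Nppc at 3 UMIs or more were together in 9 cells, where the product within the cluster gave 5.25, and inside cluster 5, Pdyn and Gal were together in 38 cells, where it gave 38.1. Crh and Pdyn were together in 27 cells of cluster 3, above the product of 13.7, but in only 5 cells of cluster 9, below the product of 13.7. At 1 UMI or more, 32 of the 70 Crh cells of cluster 9 had Pdyn, where the product gave 42.1, so the pair was below the product at both minimums there. Trh and Pdyn, which over all cells shared fewer cells at 3 UMIs or more than the product (31 against 50.7), were together in 25 cells of cluster 6, where it gave 18.6.

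The relation to fast transmitters was described in 4 classes set by 3 UMIs of Gad2, which encodes a GABA-synthesising enzyme, and of Slc17a8. There were 879 cells with Gad2 only, 873 with Slc17a8 only, 279 with both and 319 with neither. Among 12901 genes, 3.22% were at least 2-fold higher in the Gad2 class than in the Slc17a8 class and 3.9% at least 2-fold lower. Among the members, 3 of 7 were higher (Trh, Pdyn and Vip) and 3 of 7 lower (Crh, Penk and Nppc, of which Crh lost the 2-fold size under a pair of alternatives given with its values), 6 of 7 against 7.12% of genes either way. The Vip call rests on 21 against 5 UMIs (log2 ratio 1.94, 0.50 to 3.71), and Vip reached the minimum of 100 UMIs only through 1 cell that is in neither class, so 5 of 6 is the count without it. Of the 14 other listed precursors with a UMI in 5% of cells or more, 1 was higher and 4 were lower. The median log2 ratio was -0.14 over the members and -0.02 over all genes, so the members split in both directions and did not shift as a list. With 1 pooled sample these counts are sizes, not tests.

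Trh was nearly absent from the Slc17a8 class, with 27.3 CPM in the Gad2 class, 0.756 CPM in the Slc17a8 class, 3.30 CPM in cells with both and 27.2 CPM in cells with neither. The log2 ratio of the Gad2 to the Slc17a8 class was 5.17 (4.70 to 5.69). Of the 200 cells with 3 UMIs or more of Trh, 142 were in the Gad2 class, 49 had neither transmitter gene, 6 had both and 3 were in the Slc17a8 class. Trh thus tracked the lack of Slc17a8 more closely than the presence of Gad2, and over cells its Spearman rho was -0.35 with Slc17a8 and 0.19 with Gad2 (n = 2350 cells that share 2 libraries and differ in depth).

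Pdyn was present in every class, at 64.3 CPM in the Gad2 class, 24.8 CPM in the Slc17a8 class, 56.4 CPM in cells with both and 62.6 CPM in cells with neither (log2 ratio of the first 2 of 1.38, 1.28 to 1.47). Crh went the other way and was highest in cells with both genes (18.3 CPM), with 13.0 CPM in the Slc17a8 class, 5.99 CPM in the Gad2 class and 2.90 CPM in cells with neither (log2 ratio -1.12, -1.32 to -0.92). It was no longer 2-fold lower in the Gad2 class when CPM was averaged over cells (log2 ratio -0.96) or in barcode set 2 alone (-0.95). Gal had 11.5 CPM in the Gad2 class and 12.6 CPM in the Slc17a8 class, and the interval of its log2 ratio (-0.14, -0.30 to 0.03) included 0. It was at 8.74 CPM in cells with both and 9.58 CPM in cells with neither. The interval lay below 0 when the classes were set by 1 UMI (-0.24, -0.42 to -0.07) or 10 UMIs (-0.56, -0.77 to -0.34) and in barcode set 1 (-0.36, -0.59 to -0.12).

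Penk and Nppc were higher in the Slc17a8 class. Penk had 12.8 CPM in the Slc17a8 class and 1.31 CPM in the Gad2 class (log2 ratio -3.29, -3.67 to -2.93), and 33 of its 39 cells with 3 UMIs or more were in the Slc17a8 class. Nppc had 4.27 and 0.299 CPM (log2 ratio -3.83, -4.67 to -3.10), and 29 of its 32 cells were in that class and 0 in the Gad2 class. Vip had 0.393 CPM in the Gad2 class, 0.102 CPM in the Slc17a8 class and 6.07 CPM in cells with both, the last value being that of its single high cell.

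**Figure D2:**
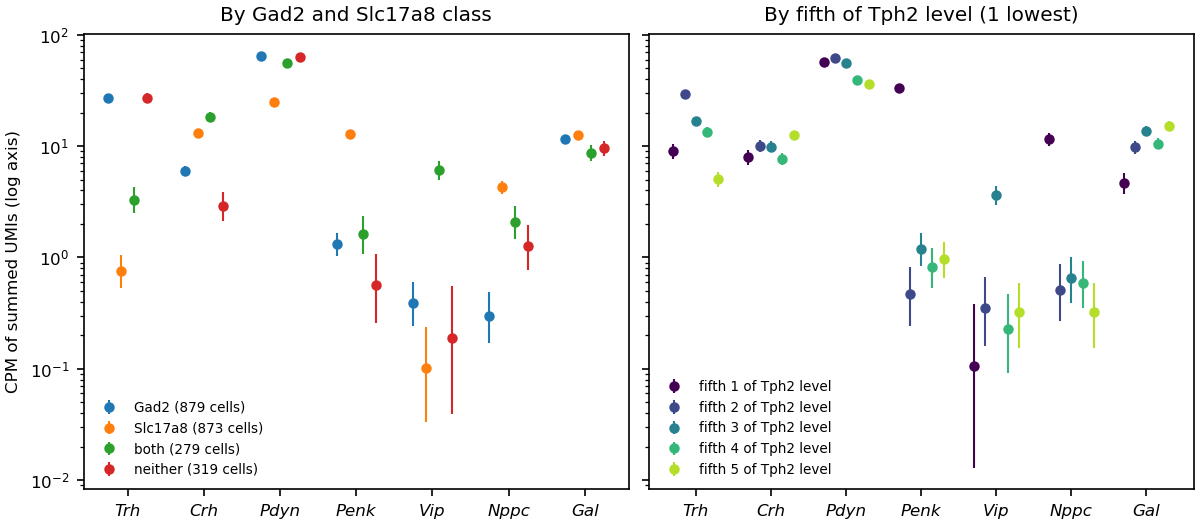
Level of each member in CPM of summed UMIs, on a log axis, in the 4 transmitter classes (left) and in 5 equal parts of the cells ranked by Tph2 (right), with exact 95% Poisson intervals. Trh falls from 27.3 CPM in the Gad2 class to 0.756 CPM in the Slc17a8 class, and Penk and Nppc are highest in the part with the lowest Tph2.

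Tph2 itself was used to rank the cells into 5 equal parts, and the lowest (470 cells, up to 1686 CPM of Tph2) was set against the other 1880 cells. The lowest part was shallower, with a median of 39740 UMIs. Penk had 33.2 CPM in the lowest part and 0.876 CPM in the other cells (log2 ratio 5.24, 4.94 to 5.56), and Nppc 11.6 and 0.515 CPM (4.49, 4.07 to 4.93). Against 3.13% of all genes, 2 of 7 members were at least 2-fold higher there, and against 1.29%, 2 of 7 were at least 2-fold lower, Gal and Vip (4.42% of all genes either way). Gal had 4.62 CPM in the lowest part and 12.4 CPM elsewhere (-1.43, -1.75 to -1.12), and the Vip value again turns on 1 cell. Of the 14 other precursors, 4 were higher and 1 was lower.

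Over the 5 parts, Trh had 9.02 CPM in the lowest part, 29.5 CPM in the second and 5.03 CPM in the highest, so it peaked in cells of low to middle Tph2. Pdyn fell from 61.6 CPM in the second part to 36.5 CPM in the highest, and Gal reached 15.3 CPM in the highest. Crh stayed between 7.68 and 12.5 CPM in the 5 parts, but its share of cells with a UMI rose from 4.68% in the lowest to 17.9% in the highest. The median depth also rose, from 39740 to 69248 UMIs. The median Tph2 level of cells with 3 UMIs or more was 115 CPM for Penk and 104 CPM for Nppc, against 2317 CPM for Trh, 2829 CPM for Crh, 2623 CPM for Pdyn, 3123 CPM for Gal and 2587 CPM over all cells. Cells under 500 CPM of Tph2 were 131 of 2350 (5.57%), but 28 of 39 Penk cells and 27 of 32 Nppc cells. For the other members they were 0 of 200 Trh cells, 0 of 130 Crh cells, 6 of 596 Pdyn cells, 1 of 175 Gal cells and 0 of 1 Vip cell. At 1 UMI or more, 56 of 98 Penk cells and 101 of 154 Nppc cells were in the lowest part. The cells with 3 UMIs or more of Penk or Nppc were therefore mostly low in Tph2.

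Clustering by the settings of the study gave 14 clusters, numbered by the study's markers and named here by 2 of these. The members were among the genes clustered, so levels by cluster are a description. A clustering run without any peptide precursor gave 94.5% of cells the same number, but cluster 4 had 62 cells in place of 145 and cluster 2 had 447 in place of 369. In the runs with exact principal components and with components 1 to 50, cluster 4 was as small (60 and 63 cells). With components 1 to 50, no cluster took number 7, and numbers 2, 3 and 12 were each given to more than 1 cluster. Equal numbers in that run and the main one therefore need not name the same cells. Of all genes, 20.9% were at least 2-fold higher in some cluster than in its other cells, and 5.29% at least 4-fold.

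Trh was highest in cluster 2 (Crym, Asb4; 369 cells), where its level was 62.0 CPM (58.6 to 65.5) and 57.7% of cells had a UMI. Cluster 4 (Sox14, Vim; 145 cells) followed with 35.4 CPM and cluster 6 (Pou3f2, Bcl11a; 168 cells) with 31.7 CPM. The second place was not stable, since the smaller cluster 4 of the other 3 clusterings had 16.6 to 18.7 CPM and cluster 6 had 31.2 to 31.5 CPM. It also differed between barcode sets, where clusters 4 and 6 had 61.0 and 24.4 CPM in set 1, against 30.1 and 34.1 CPM in set 2. In the main clustering these 3 clusters held 197 of the 200 cells with 3 UMIs or more. In the other clusters Trh had between 0 and 3.64 CPM, with 0 UMIs in cluster 1 (Npas1, Gabrq; 100 cells, median depth 45664) and cluster 12 (Met, Zeb2; 109 cells, median depth 45568), which allows shares of cells with a UMI of up to 3.62% and 3.33%. Gad2 had 117, 311 and 169 CPM in clusters 2, 4 and 6 (508 to 511 CPM in cluster 4 of the other clusterings), but clusters 3 and 5 had 222 and 134 CPM of Gad2 with only 1.24 and 3.12 CPM of Trh. Trh was therefore high in some, not all, of the clusters rich in Gad2. The genes most like Trh over cells were Asb4 (Pearson r = 0.41 of log-normalised counts), Cpne5 (0.40) and Wfdc12 (0.39), each within 0.35 to 0.47 in both barcode sets. All of them are also among the markers that number cluster 2.

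Pdyn formed a gradient over many clusters. Its level reached 228 CPM (219 to 237) in cluster 5 (Ret, Col25a1; 179 cells), where 97.8% of cells had a UMI. Cluster 14 (Gpr101, Ecel1; 100 cells) came next with 194 CPM (180 to 209), then cluster 6 with 102 CPM (95.5 to 108) and cluster 9 (Maf, Nos1; 148 cells) with 69.0 CPM. Cluster 3 (Kit, Phlda1; 313 cells) and cluster 7 (Tmeff2, Adcy2; 122 cells) had 37.2 and 32.4 CPM with overlapping intervals (34.6 to 39.9 and 28.6 to 36.6). The lowest levels, in clusters 1, 12 and 4, were 1.11, 1.21 and 1.61 CPM, where 4.00%, 4.59% and 8.28% of cells had a UMI. Clusters 4 and 6 thus differed in Pdyn, also in the other clusterings, where cluster 4 had 1.32 to 1.36 CPM and cluster 6 had 101 to 113 CPM. Cluster 14 fell to 83.9 CPM with components 1 to 50, where it had 218 cells. The genes most like Pdyn were Rprm (r = 0.50), Ret (0.47) and Adcy2 (0.46), of which Ret is also a marker that numbers cluster 5 and Adcy2 one that numbers cluster 7.

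Crh was highest in cluster 9, at 52.8 CPM (48.2 to 57.8) and in 47.3% of cells, followed by cluster 5 at 20.6 CPM (18.0 to 23.5). Cluster 9 led in each of the other clusterings (54.0 to 62.0 CPM), but with exact principal components and with components 1 to 50 cluster 5 had 12.0 and 12.1 CPM and cluster 10 was second, at 13.5 and 19.1 CPM. In the main clustering, clusters 10 (Hs3st5, Hcrtr2; 238 cells), 11 (Rspo3, Foxa1; 129 cells) and 3 followed at 13.0, 11.8 and 11.8 CPM with overlapping intervals, and every other cluster was at 1.90 CPM or less, with 0 UMIs in cluster 7. Of these, clusters 9, 10 and 11 had 317, 350 and 501 CPM of Slc17a8, while clusters 3 and 5 had more Gad2 than Slc17a8. Crh was thus found in clusters of both kinds. Its most similar genes were Maf (r = 0.44), Nos1 (0.42) and Synm (0.41), of which Maf and Nos1 are also among the markers that number cluster 9.

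Gal had its highest level in cluster 8 (Rorb, Nr2f2; 86 cells), at 41.5 CPM (36.3 to 47.3). With components 1 to 50, cluster 8 had 267 cells and 25.6 CPM, below the 33.8 CPM of cluster 5. In the main clustering, clusters 5, 6 and 10 followed with 29.7 CPM (26.6 to 33.1), 22.4 CPM (19.5 to 25.6) and 16.0 CPM (14.1 to 18.1). Its share of cells with a UMI was 55.8% in cluster 8 and 60.3% in cluster 5, a difference in the opposite direction to the level but within the intervals (44.7 to 66.5 and 52.8 to 67.6). The lowest level was 0.403 CPM in cluster 12. The genes most similar to Gal had low correlations, Spsb1 with r = 0.28, Rgs2 with 0.24 and Oxtr with 0.21.

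Penk and Nppc shared cluster 13 (Nfib, Bmp3; 144 cells), whose median depth of 28628 UMIs was the lowest of all clusters. Penk had 138 CPM (127 to 149) there, in 28.5% of cells, which was 608 of its 735 UMIs, and the next level was 3.92 CPM in cluster 14. Nppc had 41.9 CPM (36.1 to 48.4) in cluster 13, in 52.1% of cells, while cluster 14 was at 8.41 CPM (5.67 to 12.0) and the others at 2.44 CPM or less. In the other clusterings cluster 13 had 131 to 138 CPM of Penk and 41.6 to 42.2 CPM of Nppc. Thinned to 20000 UMIs, 41.0% of the 134 deep enough cells of cluster 13 still had Nppc and 24.6% had Penk. Outside cluster 13, Penk had 3 UMIs or more in 11 cells, spread over clusters 3, 4, 8, 9, 10 and 14.

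Of the 144 cells of cluster 13, 27 had both genes (product within the cluster 21.4), 14 had Penk alone, 48 had Nppc alone and 55 had neither. At the depth of this cluster a gene at 0 UMIs may have been missed. Tph2 was 117 CPM in the cells with both, 115 CPM with Penk alone, 295 CPM with Nppc alone and 1185 CPM with neither, while Slc17a8 was 586, 639, 457 and 313 CPM in the same order. In that order, Nts (neurotensin) was at 1756, 377, 75.4 and 1.55 CPM and Sst (somatostatin) at 556, 2666, 88.7 and 145 CPM, sums in which a single cell can weigh heavily, with up to 222 UMIs of Nts and 364 of Sst per cell. Nts was the gene most like Penk over all cells (r = 0.58, with 0.70 in set 1 and 0.46 in set 2), followed by Irx2 (0.57) and Irx1 (0.56), whose r fell to 0.29 and 0.16 in set 2. The genes most like Nppc were Kctd8 (0.57), Plpp4 (0.47) and Rnd3 (0.43). Vip, whose 3 most similar genes reached r = 0.17 at most, had 9.37 CPM in cluster 5 through its single high cell and 0.575 CPM or less elsewhere.

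**Figure D3:**
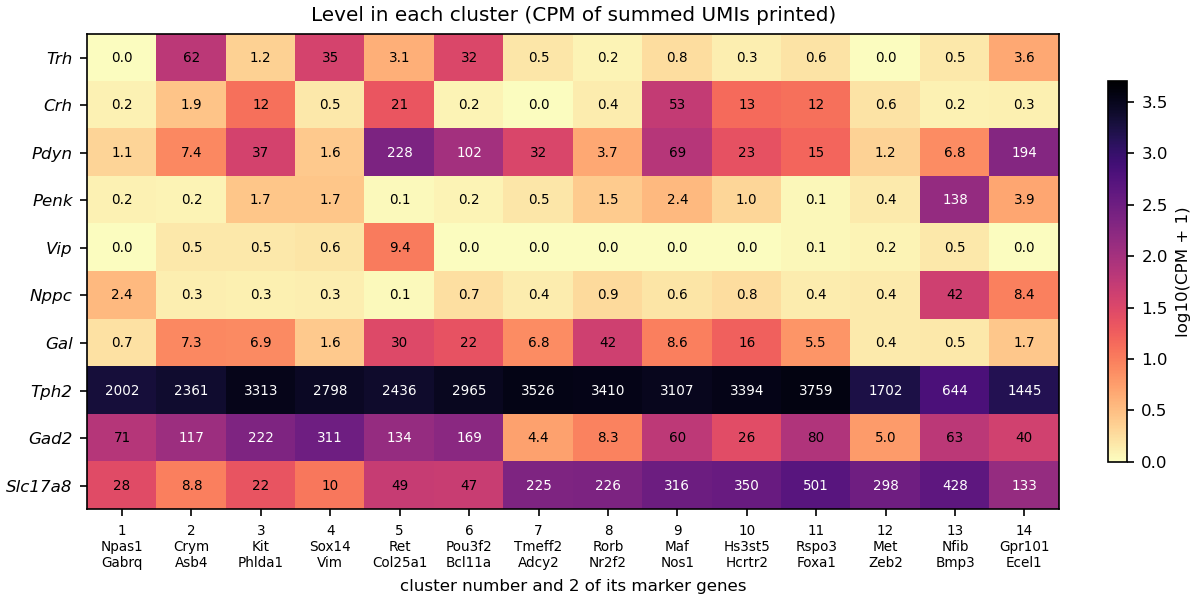
Level of each member, and of Tph2, Gad2 and Slc17a8, in the 14 clusters in CPM of summed UMIs, in the main clustering. Trh is highest in clusters 2, 4 and 6, Pdyn in 5 and 14, Crh in 9, Gal in 8 and 5, and Penk and Nppc in 13.

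Taken by cluster, the number of cells with any member ranged widely. It was 178 of 179 cells (99.4%) in cluster 5, 95% in cluster 14, 87.5% in cluster 6 and 87.2% in cluster 9, but 19 of 100 cells in cluster 1 and 13 of 109 (11.9%, 6.51 to 19.5) in cluster 12. With 3 UMIs or more, 0 cells of clusters 1 and 12 had a member, which allows up to 3.62% and 3.33%. The median depth of these clusters (45664 and 45568 UMIs) was above that of clusters 13 and 14 (28628 and 34715 UMIs), where 34.0% and 68% of cells had a member at that minimum. The exception among these low values was Nppc in cluster 1, with a single UMI in each of 11 of 100 cells (2.44 CPM, against 2.07 CPM over all cells), and 7.37% of its cells kept one after thinning.

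Receptors for these peptides were read in the same cells from a list of 15, of which 11 were in the 10X table and 5 had a UMI in 5% of cells or more. Crhr2, a receptor of the Crh family of peptides, was found in 28.4% of all cells, and in 62.3% of the 130 cells with 3 UMIs or more of Crh at 27.5 CPM, against 24.8% of the 2036 cells without Crh at 9.52 CPM (log2 ratio 1.53, 1.33 to 1.73). Oprk1, the kappa opioid receptor, went the other way, at 0.561 CPM in the 596 Pdyn cells and 2.78 CPM in the 1246 cells without Pdyn (-2.31, -3.04 to -1.66). Oprk1 was highest in cluster 13 (17.7 CPM, next 7.72 CPM in cluster 8), which held 3 of the 596 Pdyn cells, and without cluster 13 the log2 ratio was -1.83 (-2.59 to -1.14). Crhr2 was highest in clusters 10 (34.5 CPM) and 8 (24.4 CPM) and at 0 in cluster 13, without which its log2 ratio was 1.48 (1.27 to 1.68). Crh and Crhr2 were thus more often in the same cells, and Pdyn and Oprk1 less often, by these counts. The counts were not made within clusters, so they do not separate sharing of cells from the make-up of the clusters.

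Among the other receptors, Galr1, a galanin receptor, had 24.5 CPM in cluster 13 and 0.221 CPM or less in every other cluster, and cluster 13 had Gal in 2 of its 144 cells. Npr2, the receptor of C-type natriuretic peptide, was found in 50.6% of cells, at 12.9 CPM in the 32 Nppc cells and 13.1 CPM in the cells without Nppc. Oprm1 (mu opioid receptor) was highest in cluster 12 at 18.3 CPM, where 2 of 109 cells had Penk. Trhr (0.553%) and Crhr1 (0.809%) were below the share of Hcrt.

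Most of the listed machinery that cuts and packs peptides was found in most cells. All 15 listed genes had a UMI in 5% of cells or more, and Cpe (carboxypeptidase E) and Pcsk1n were found in 100%, Pam in 97.7%, Pcsk2 in 94.0% and Pcsk1 in 85.4% of cells. Ptprn2 was found in 67.4%. Cadps2 was the least found, in 8.85% of cells and at 3 UMIs or more in 19 cells, a share that does not by itself show expression. Between the 987 cells with 3 UMIs or more of a member and the 646 cells with no member UMI, 0 of the 15 were at least 2-fold lower, against 0.775% of all genes, and 1 was at least 2-fold higher, against 1.18%, Cadps2, a vesicle priming factor (3.35 and 1.31 CPM, log2 ratio 1.36, 0.89 to 1.86). Pcsk1, the prohormone convertase that starts many precursor cuts, had 66.8 and 50.9 CPM, and the granin Chgb 1060 and 1453 CPM. The median depth of the 2 sets of cells was 62670 and 54021 UMIs. Cells without a detected member therefore still had most of the listed transcripts of peptide processing.

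In the manually sorted cells, which were read along whole transcripts at 756872 to 7664103 reads per cell, each group was 1 sample because no animal is named for a cell. Levels are reads per 1000000 reads on genes in that cell (CPM) and are compared only within a gene. Tph2 lay between 2720 and 21204 CPM in all 70 cells, a scale that is not comparable with the CPM of UMIs in the 10X cells. A member was found at 10 CPM or more in 47 of the 70 cells and 2 or more in 17. By group these were 10 of 10 dlDR cells, 9 of 9 dmDR, 4 of 8 vmDR and 4 of 6 Slc6a4-cre cDR cells, 7 of 10 Npy2r-cre cDR, 7 of 9 Npy2r-cre rDR and 6 of 8 Crh-cre cells, but 0 of 10 P2ry1-cre cells. The P2ry1-cre group had the highest median depth (5737032 reads), and its only member reads were 1 of Crh and 2 of Pdyn, in the same cell.

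Trh was found in 7 of 10 dlDR cells (lowest 0, median 51.5, highest 642 CPM) and 5 of 9 dmDR cells (lowest 0, median 0.187, highest 296 CPM). It was found in 1 cell each of the Slc6a4-cre cDR, Npy2r-cre cDR, Npy2r-cre rDR and Crh-cre groups, at 0.228, 7.30, 14.5 and 10.9 CPM, and in 0 of 8 vmDR and 0 of 10 P2ry1-cre cells, which allows shares of up to 36.9% and 30.8%. Only dlDR and dmDR cells exceeded 15 CPM, and within these groups cells with and without the gene lay side by side. In the dlDR, the 5 cells of day 90 all had Trh (16.3 to 642 CPM) and 2 of the 5 cells of day 63 did (26.5 and 437 CPM). Of the 12 cells with 10 CPM or more of Trh, 11 had 10 CPM or more of Gad2 and 0 of Slc17a8, where 31 and 40 of all 70 cells did. At 10 CPM or more of each gene, 17 of 29 Pdyn cells had Gad2 and 16 had Slc17a8. Pdyn was in 12 of the 25 cells with Gad2 only and 11 of the 34 with Slc17a8 only, the direction of the 10X classes. Crh and Penk did not show the split of the 10X classes. At the same minimum, Gad2 was in 5 and Slc17a8 in 3 of 7 Crh cells, and in 2 and 1 of 3 Penk cells. These are few cells, and the 10X Penk cells were mostly in the Slc17a8 class.

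Crh was found in 5 of 8 Crh-cre cells, at 378, 44.4, 26.4, 1.46 and 1.41 CPM, and in 4 of 9 dmDR cells, at 133, 98.2, 14.6 and 0.984 CPM. Beyond these, 1 Npy2r-cre rDR cell had 86.7 CPM and 1 P2ry1-cre cell had a single read. The cells sorted through Crh-cre thus overlapped with the dmDR cells, and 3 of 8 had no Crh read. Crh-cre is a transgene apart from the Crh gene itself, so a labelled cell need not have used Crh. Of the 7 cells with 10 CPM or more of Crh, 6 had 10 CPM or more of Pdyn, 3 in the dmDR and 3 in the Crh-cre group.

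Pdyn was found in 32 of the 70 cells. It was in 6 of 8 Crh-cre cells (median 117, highest 429 CPM, all 6 from day 119), 7 of 10 Npy2r-cre cDR cells (median 73.6, highest 502 CPM), 6 of 9 dmDR cells (median 42.3, highest 240 CPM) and 6 of 9 Npy2r-cre rDR cells (median 34.8, highest 269 CPM). In the other groups the median was 0, with the highest cell at 180 CPM in the Slc6a4-cre cDR, 31.7 CPM in the vmDR, 29.9 CPM in the dlDR and 0.328 CPM in P2ry1-cre. The lowest cell was 0 in every group, so all 8 groups overlapped. Some groups mix ages that differed. At days 77 and 87, Pdyn was in 1 of 3 and 5 of 6 Npy2r-cre rDR cells and in 2 of 4 and 5 of 6 Npy2r-cre cDR cells. At days 63 and 90 it was in 0 of 4 and 3 of 4 vmDR cells, 4 of 6 and 2 of 3 dmDR cells, and 1 of 5 and 0 of 5 dlDR cells. The dlDR, where Trh was found most often, had Pdyn in 1 of 10 cells.

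Gal was found in 25 cells, spread over 7 of the 8 groups. It was in 4 of 6 Slc6a4-cre cDR cells (median 22.9, highest 83.5 CPM), 5 of 9 Npy2r-cre rDR cells (median 14.4, highest 69.7 CPM), 5 of 10 dlDR cells (median 2.89, highest 92.6 CPM), 5 of 9 dmDR cells (median 1.18, highest 26.6 CPM), 3 of 8 Crh-cre cells (highest 29.5 CPM), 2 of 8 vmDR cells (14.8 and 9.04 CPM) and 1 of 10 Npy2r-cre cDR cells (14.9 CPM). The 10 P2ry1-cre cells had none, which allows a share of up to 30.8%. Of the 17 cells with 10 CPM or more of Gal, 8 had Gad2 and 9 Slc17a8 at that level.

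Penk, Vip and Nppc were each found in 3 of the 70 cells. Penk had 69.2 CPM in a dmDR cell, 64.4 CPM in a vmDR cell and 39.3 CPM in a Crh-cre cell. Vip had 31.0 CPM in the same dmDR cell, 12.7 CPM in another Crh-cre cell and 0.634 CPM in a dlDR cell. Nppc had 25.6 CPM in a vmDR cell, 9.46 CPM in a Slc6a4-cre cDR cell and 0.360 CPM in an Npy2r-cre rDR cell. The dmDR cell with Penk and Vip also had Crh (14.6 CPM) and Pdyn (85.1 CPM), 4 members at 10 CPM or more, the most in any sorted cell.

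**Figure D4:**
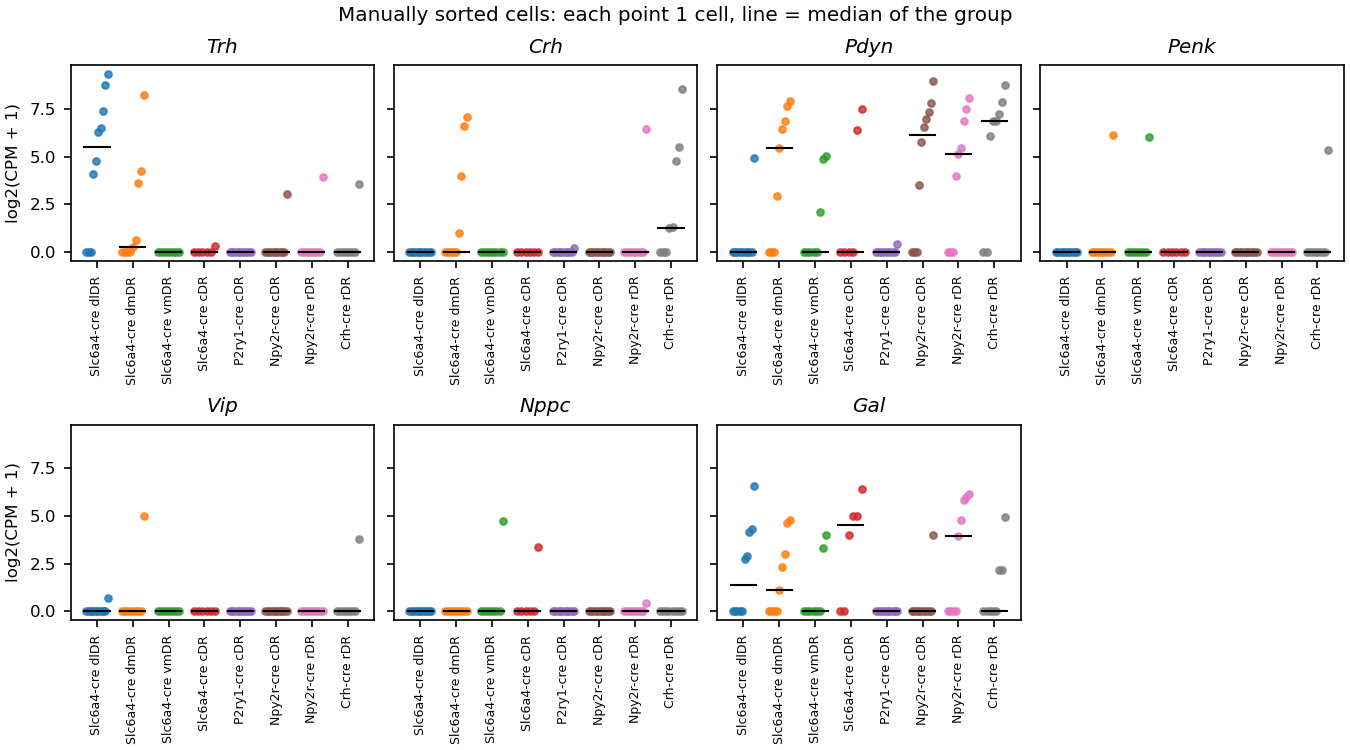
Level of each member in every manually sorted cell, in CPM of reads on genes, by group (1 point per cell, 70 cells in 8 groups). Trh is highest in dlDR cells (up to 642 CPM), the single highest Pdyn cells are in the Npy2r-cre cDR and Crh-cre groups (up to 502 and 429 CPM), and the P2ry1-cre cells are at or near 0 for every member.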

How the data were processed

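RNA was measured in Pet1 neurons by 10X Chromium 3′ libraries (2350 cells) and by full-length SMART-Seq libraries of 70 manually sorted cells. Per the labels, the processing tools were Cell Ranger 3.0.2, STAR 2.5.4 and R 3.5.3 with the mm10 build. The authors deposited UMI counts per gene and 10X cell after removing rare genes, cells with few genes or low Fev, and cells with high glial or mitochondrial, low ribosomal or outlying totals. The read counts of the sorted cells were deposited without normalization. Filtering on Fev and depth sets which cells a share refers to, and no 10X column names a run or animal.

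The members and gene lists were chosen with earlier results of these data known. The genes named in the text are the 7 members, the transmitter and Cre driver genes, the listed precursors found in 5% of cells or more, the listed receptors, processing genes and markers of other cells, the 3 genes most like each member, and the markers that number the clusters. Nts is named as the gene most like Penk. The Hcrt and Hbb-bs values, the split of cluster 13 and the receptor (with and without cluster 13) and processing comparisons were added after their values were seen.

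Levels are CPM of summed UMIs, compared over the 12901 genes with 100 UMIs or more, 2-fold being the size called. A share counts cells with a UMI. Thinning drew 20000 UMIs per cell. Clusters were made in Seurat 5.3.0 (R 4.3.3) from 2000 variable genes, components 1 to 50 without 6 and 7, 20 neighbours and a resolution of 0.9. Truncated components were kept after truncated and exact ones had both been seen. Other steps used Python 3.11.15, numpy 2.4.6, scipy 1.17.1, pandas 2.3.3 and scanpy 1.11.5 (Scrublet). The ratio script was tested on simulated data for the transmitter class comparison over 12901 genes, where it gave the right direction for 200 of 200 changed genes. The simulated counts had only Poisson spread around pooled means. They held no unevenness over cells and no difference between barcode sets, so the ratios were not checked against these. Alternatives were other UMI minimums, thinning, each barcode set, removal of doublets, other class limits, other clusterings and leaving out each sorted cell.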

Additional observations from a re-analysis of the deposited data

Results flagged for a closer look

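Among the sorted cells, 34 combinations of a member and a group had a read, and each was searched for a cell that stands apart from the rest of its group. In 19 the highest cell did so, and in 18 of these every other cell of the group was at 0, so the measure says only that a single cell had the gene. Chance alone marks about 1 in 20 groups of well-spread values. Trh stood apart in 1 Slc6a4-cre cDR cell (0.228 CPM), 1 Npy2r-cre cDR cell (7.30 CPM), 1 Npy2r-cre rDR cell (14.5 CPM) and 1 Crh-cre cell (10.9 CPM). Crh did so in 1 P2ry1-cre cell (0.164 CPM) and 1 Npy2r-cre rDR cell (86.7 CPM), and Pdyn in 1 dlDR cell (29.9 CPM) and the same P2ry1-cre cell (0.328 CPM). Penk did so in 1 dmDR cell (69.2 CPM), 1 vmDR cell (64.4 CPM) and 1 Crh-cre cell (39.3 CPM).

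Vip did so in 1 dlDR cell (0.634 CPM), 1 dmDR cell (31.0 CPM) and 1 Crh-cre cell (12.7 CPM). Nppc did so in 1 vmDR cell (25.6 CPM), 1 Slc6a4-cre cDR cell (9.46 CPM) and 1 Npy2r-cre rDR cell (0.360 CPM). Gal did so in 1 Npy2r-cre cDR cell (14.9 CPM) and in 1 Crh-cre cell (29.5 CPM). In this last group 5 of the 8 cells were at 0, while in each of the other cases all cells but the named one were.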

How the results depend on the processing

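The share of cells with any member, 72.5%, was 42.0% at 3 UMIs or more, 13.4% at 10 UMIs or more and 56.0% after thinning, and stayed between 72.0% and 73.4% within each barcode set and without doublets. The share with 2 or more members, 33.1%, was 7.28% at 3 UMIs or more and 15.1% after thinning. The number of members at least 2-fold apart between cells of low and higher Tph2 was 4 for the lowest of 5 equal parts and 7 when the line was drawn at 500 CPM of Tph2. The number of member and group combinations with a read in a sorted cell was 34, ranged from 32 to 34 with each cell left out in turn, and was 16 when a read was asked for at each age of the group. The other alternatives moved none of the main counts by 1.5 times or more, and of the values for single members 275 stayed within their range and 126 moved, with 0 called values changing direction. Exact principal components and thinning of the sorted cells were chosen after the data were seen, and the former gave 95.5% of cells the same cluster number. All components together gave 80.1%. No paired analysis was possible because no result came from a test and the replicate numbers of the sorted cells only name cells. Depth limits the absence of a gene in shallow clusters and in groups of 6 to 10 cells, and the members that are low in a cell can be missed.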

Other observations

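Beyond the 7 members, 40 of 61 other listed precursors were in the 10X table and 14 had a UMI in 5% of cells or more. Vgf, a granin-like precursor, was found in 86.6% of cells and was highest in cluster 14 (576 CPM). Pomc, the precursor of melanocortins and beta-endorphin, was found in 53.7% of cells but with at most 5 UMIs in any cell, and its levels by cluster lay between 9.98 CPM (cluster 13) and 19.7 CPM (cluster 2). Sst, in contrast, was found in 8.13% of cells with up to 364 UMIs, and its highest levels were those of clusters 14 and 13 (470 and 386 CPM). Adcyap1, the precursor of PACAP, had nearly the same level in clusters 13 and 8 (37.2 and 36.6 CPM), and Ghrh had 27.6 CPM in cluster 8. Calca, the precursor of calcitonin and CGRP, had 35.8 CPM in cluster 13. By transmitter class, Gast was at least 2-fold higher in the Gad2 class (2.98 against 0.837 CPM), and Adcyap1, Calca, Ghrh and Sst were at least 2-fold lower, Sst by the most (1.98 against 64.7 CPM).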
